A study of Drosophila melanogaster with 6 samples.

Results

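The cytosolic glutathione transferases of the fly are named Gst with a class letter and a number. They were taken here as all genes whose name has the letter D, E, O, S, T or Z after Gst and then a digit, with the brightest probe set of each gene over the 6 arrays. This gave 34 genes of the 11982 that had a probe set with a single gene name: 11 of class D (delta), 13 of class E (epsilon), 3 of class O (omega), 1 of class S (sigma), 4 of class T (theta) and 2 of class Z (zeta). GstE8 is in the Release 6 gene table between GstE7 and GstE9, but no probe set is named for it here, and it was not analysed. The genes were selected by name, but members were chosen with earlier results of these data known.

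Adult w1118 females were held in normal oxygen for 1 week on a regular diet (RD, a commercial fly food sold as Jazz-Mix) or on a high-fat diet (HFD) with coconut oil at 20% weight per volume. Both groups were the same strain, whole bodies of females frozen at 10 to 12 days of age. RNA was hybridised to Affymetrix arrays, 3 per diet. The labels do not say how many flies were in a sample or whether flies on 1 diet came from 3 separate vials, so each p-value here rests on the spread among these arrays alone, which may be technical. w1118 is a white-eyed laboratory stock whose white gene, coding for a pigment transporter, is disrupted in both groups alike.

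Glutathione transferases join the tripeptide glutathione to reactive molecules, which makes these easier to export. Substrates include plant toxins, insecticides and aldehydes such as 4-hydroxynonenal that form when polyunsaturated fats are oxidised. The delta and epsilon classes are specific to arthropods, many of their genes lie in tandem clusters, and several are expressed in the gut, the fat body and the excretory Malpighian tubules. Zeta enzymes act in tyrosine breakdown and theta enzymes are found from bacteria to mammals. The transcription factor CncC, a product of the gene cnc that is held back by Keap1, induces some family members, GstD1 among them.

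A signal is the brightness that the MAS5 software gives a probe set, on a linear scale. Signals of different genes come from different probes, so their levels are not ranked against each other here. Differences between named genes within an array are given only for how they shift between the diets. Differences are log2 fold changes of HFD over RD, computed on log2(signal + 1), each with its standard error (SE) from a limma fit to all 11261 probe sets brighter than a filter level of 27.95 on average. A gene is called higher or lower, and is said to have risen or fallen, at an adjusted p under 0.05, Benjamini-Hochberg over all 11261. In RNA of whole bodies, fewer cells of a type and less RNA per cell cannot be told apart.

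Of the 34 genes, 29 passed the filter. The called genes were few and their changes were under 2-fold: GstE3, GstE9, GstD10, GstO3 and GstD1 fell and GstE1 and GstT3 rose, while 22 did not pass. Over all tested probe sets 19.5% were called, 12.9% higher and 6.63% lower. In the family the share was 24.1%, 6.9% higher and 17.2% lower, so the count of called genes lies near that of all probe sets. The estimate was below 0 for 22 of the 29 genes, against 48.7% of all probe sets tested. The family's median estimate was -0.13 on the log2 scale, and that of all tested probe sets was 0.0083. The 3 HFD arrays lay all below the 3 RD arrays for 13 genes and all above them for 5, GstE4 among these, which entered the test through its HFD arrays alone. Over all tested probe sets those shares were 18.7% and 23.2%. Over the 8687 genes tested, by their brightest probe set as in the family, they were 20.3% and 22.3%. On that basis 51.5% of estimates were below 0, with a median of -0.0092, and 12.3% of genes were called higher and 6.98% lower. The members were chosen with earlier results of these data known, and no test of the family as a whole was made.

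**Figure D1:**
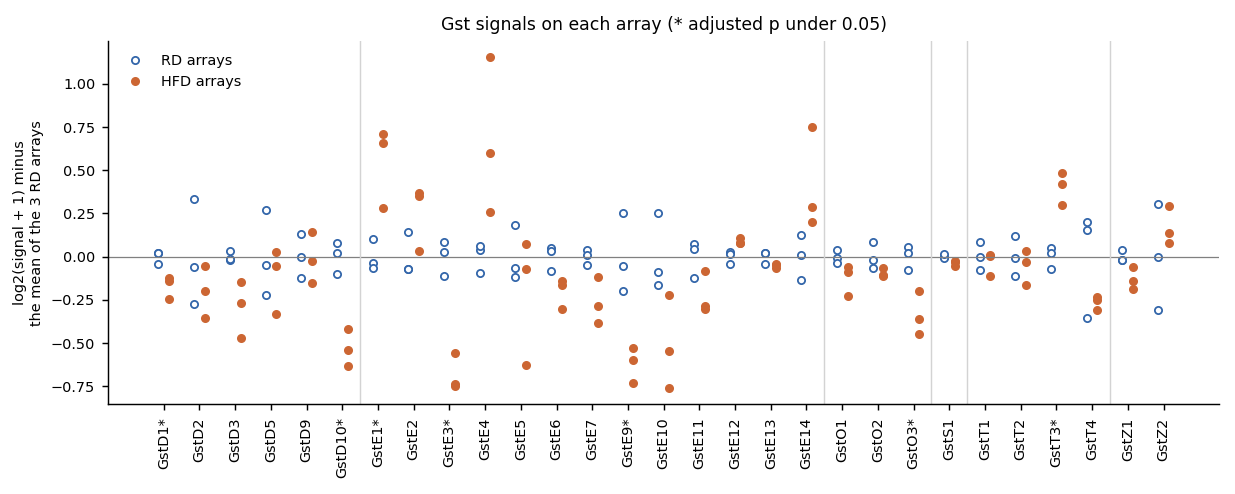
Signals of the 29 tested genes on each array, as log2(signal + 1) minus the mean of the 3 RD arrays of that gene (y axis), with genes on the x axis grouped by class; open points are RD arrays, filled points HFD arrays, and a star marks an adjusted p under 0.05. In class D no gene had all HFD points above the RD points, while class E held genes on both sides, from GstE3 with all 3 HFD points low to GstE1 with all 3 high.

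The scale of the arrays bears on these counts. Centring each array on its median shifted the median estimate over all probe sets by -0.21, and 17 members were then lower and none higher, with 44.4% of all probe sets called. Centring moves every gene of an array alike, so it leaves the family's distance to the median of all probe sets as it was, at -0.13. Quantile normalization can move that distance, which was then -0.078. It called GstD3, GstE7, GstE10 and GstE12 in addition (adjusted p = 0.0253, 0.0242, 0.0345 and 0.048), and no longer GstD1 and GstE1, with 21.3% of all probe sets called. A block for the replicate number in the titles added GstE4, GstE6 and GstE10 (adjusted p = 0.0483, 0.0248 and 0.0283), with 22.7% of all probe sets called. Array weights, with which 20 members were called, added GstE10 among others (0.0012), and 54.4% of all probe sets were called with them.

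The GstD genes form 1 run of neighbours in the Release 6 gene table, in the order GstD10, GstD9, GstD1, GstD2 to GstD8 and, after 1 other gene, GstD11. All 6 that were tested had estimates below 0, and 2 (33.3%) were called, both lower. Over all tested probe sets 48.7% of estimates were below 0 and 19.5% were called, 6.63% lower. GstD10 had signals of 99.5, 95.5 and 87.6 on the RD arrays and 60.2, 70.3 and 64.3 on the HFD arrays. Every HFD array lay under every RD array, and the gene fell 1.45-fold (log2 fold change -0.53 ± 0.12 SE, adjusted p = 0.0194). GstD1, an abundant enzyme known for breaking down DDT and often used as a reporter of oxidative stress, had signals of 8336, 8698 and 8711 on RD and 7235, 7786 and 7860 on HFD. Those signals did not overlap either, and the fall of GstD1 was small at 1.13-fold (-0.17 ± 0.047 SE, adjusted p = 0.0387). Whether a fold change keeps its size at so bright a signal was not tested.

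Both calls in class D were lost in some fits without 1 array, while the estimates stayed below 0. With all arrays these were -0.53 for GstD10 and -0.17 for GstD1. Leaving out RD array 2 or 3 gave GstD10 an adjusted p of 0.0653 or 0.0551 (estimate -0.52 or -0.58). Leaving out HFD array 1 gave 0.0601 (-0.48). For GstD1, the values were 0.11 and 0.129 when RD array 2 or 3 was left out (-0.16 and -0.16). They were 0.0909 and 0.0855 when HFD array 1 or 2 was (-0.13 and -0.19). In these fits 8.95% to 11.9% of all probe sets were called, against 19.5% with all arrays. Whether the calls were lost through the smaller number of arrays was not tested. After quantile normalization GstD1 was at -0.057 (adjusted p = 0.236).

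GstD3, whose predicted protein lacks part of the N-terminal domain, had signals of 367, 368 and 381 on RD and 268, 309 and 336 on HFD. The diets did not overlap for GstD3, and it missed the threshold (-0.30 ± 0.095 SE, adjusted p = 0.0642), passing it without HFD array 3 (-0.37, adjusted p = 0.0424). GstD9, which lies between the called genes GstD10 and GstD1, was at 336 ± 29.7 (SD, n = 3) on RD and 333 ± 35.0 on HFD. The 95% interval of its log2 fold change ran from -0.25 to 0.23. Within each array, log2 GstD9 minus log2 GstD10 was 1.80 to 1.87 on RD and 2.21 to 2.60 on HFD, a shift of 0.52 in the mean. This pair was chosen after its values were seen, so the shift is a description with no test.

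GstD2 overlapped between diets, from 100.3 to 153 on RD and 94.8 to 117 on HFD, and its interval ran from -0.59 to 0.19. GstD5 had 1 array of each diet under the filter level and an interval from -0.54 to 0.30. The other class D genes were too dim to test, with means of 14.2 and 12.0 for GstD4, 10.04 and 8.36 for GstD6, 25.9 and 18.4 for GstD7, 23.9 and 13.8 for GstD8 and 17.2 and 20.3 for GstD11 on RD and HFD. GstD7 and GstD8 were lower on all 3 HFD arrays, but nearly all of these signals lay under the filter level, so no fold is given.

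**Figure D2:**
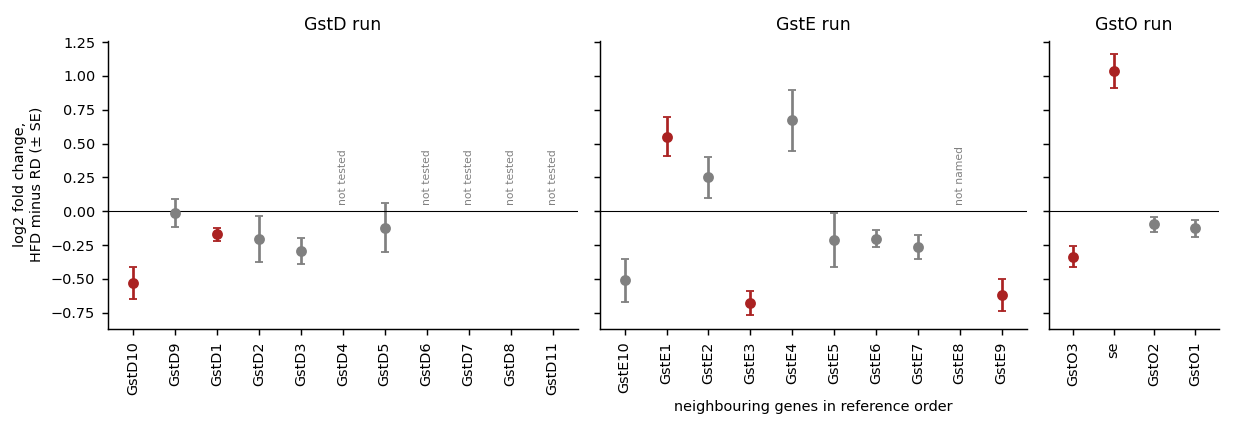
Log2 fold change, HFD minus RD, with its SE (y axis) for the genes of the GstD, GstE and GstO runs, placed in the order in which they neighbour each other in the reference table (x axis, no distances shown); red points passed an adjusted p of 0.05. In the GstD run all tested estimates were below 0, against 48.7% over all tested probe sets. In the GstE and GstO runs neighbours were not all alike in sign. GstE1 at 0.55 lies between GstE10 at -0.51 and GstE2 at 0.25, and se at 1.04 lies between GstO3 at -0.34 and GstO2 at -0.095.

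Class E held both the largest falls and a rise. Of its 13 genes, GstE3 and GstE9 fell, GstE1 rose and 10 did not pass. That is 15.4% lower and 7.69% higher, beside 6.63% and 12.9% over all tested probe sets. GstE3 had signals of 451, 409 and 470 on the RD arrays and 265, 263 and 300.4 on the HFD arrays. The 2 ranges were well apart, and GstE3 fell 1.60-fold (-0.68 ± 0.089 SE, adjusted p = 0.0032). It was the member with the smallest adjusted p, and it stayed called in all 17 alternatives that kept this threshold, with estimates from -0.89 to -0.60. Asking also for a 2-fold change left it uncalled. GstE9, the last gene of the epsilon run, had signals of 704, 964 and 777 on RD and 487, 534 and 560 on HFD. It fell 1.53-fold (-0.62 ± 0.12 SE, adjusted p = 0.0104), with RD array 2 as the highest array. Its second, dimmer probe set was at 108 ± 10.2 on RD and 92.1 ± 6.49 on HFD and did not pass (-0.23 ± 0.12 SE, adjusted p = 0.208), though its 3 HFD arrays also lay lowest.

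GstE1, which in the fly can conjugate 4-hydroxynonenal, had signals of 89.3, 80.9 and 79.1 on RD and 137, 101 and 132 on HFD. All HFD arrays lay above all RD arrays, with HFD array 2 nearest to them. GstE1 rose 1.47-fold (0.55 ± 0.14 SE, adjusted p = 0.0317). Its adjusted p was 0.0876 and 0.108 when RD array 2 or 3 was left out, 0.102 and 0.0765 when HFD array 1 or 3 was, 0.0879 after quantile normalization and 0.0783 after median centring. Within each array, log2 GstE1 minus log2 GstE3 was -2.55 to -2.32 on RD and -1.37 to -0.95 on HFD. The mean of that difference moved by 1.23, which is given as a description, since a called riser and a called faller were paired after their values were seen.

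The reference spans of GstE10 and GstE1 overlap, and whether a probe lies in the shared stretch is not known here. GstE10 had signals of 311, 416 and 328 on RD and 206, 239 and 299 on HFD. The diets did not overlap, and GstE10 missed the threshold narrowly (-0.51 ± 0.16 SE, adjusted p = 0.0599), which it passed without RD array 1 (0.0431) and without HFD array 3 (0.0337).

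GstE6 and GstE7, adjacent genes of the same run, stood lower on every HFD array without passing. GstE6 was at 2223 ± 109 on RD and 1933 ± 113 on HFD (-0.20 ± 0.062 SE, adjusted p = 0.0556), and GstE7 at 353 ± 11.1 and 295 ± 28.2 (-0.26 ± 0.089 SE, adjusted p = 0.0749). GstE6 passed without RD array 1 (adjusted p = 0.0325) and GstE7 without HFD array 3 (adjusted p = 0.0405). GstE11, which lies outside the run, was at 698 ± 50.2 and 597 ± 52.0 with overlapping diets (-0.22 ± 0.085 SE, adjusted p = 0.103; 0.0488 without RD array 1).

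On the other side of 0 was GstE4, whose RD signals of 22.0, 24.2 and 24.6 lay under the filter level and whose HFD signals were 28.5, 36.3 and 53.7. It entered the test through its HFD arrays, it did not pass (adjusted p = 0.0748; 0.0418 without HFD array 1), and no fold is given. GstE14, known as Noppera-bo, is needed in the fly's steroid-producing cells to make ecdysone. Its signals were 63.0, 52.2 and 58.0 on RD and 66.4, 70.6 and 97.5 on HFD, with the highest value on HFD array 3. The diets did not overlap for GstE14, and it did not pass (0.41 ± 0.17 SE, adjusted p = 0.125). GstE2 overlapped between diets at 42.0 ± 3.82 and 50.2 ± 6.47.

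GstE12 and GstE13 had narrow intervals. GstE12 was at 2869 ± 76.2 on RD and 3050 ± 33.7 on HFD, with an interval from -0.010 to 0.19, and GstE13 at 907 ± 21.7 and 875 ± 7.96, with an interval from -0.17 to 0.067. GstE5 was at 59.6 ± 6.86 and 52.3 ± 12.7, and its interval, from -0.67 to 0.25, leaves a change of either sign possible. The estimate of GstE12 was below 0 after median centring (-0.12), and that of GstE5 was at 0.00014 without HFD array 1.

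**Figure D3:**
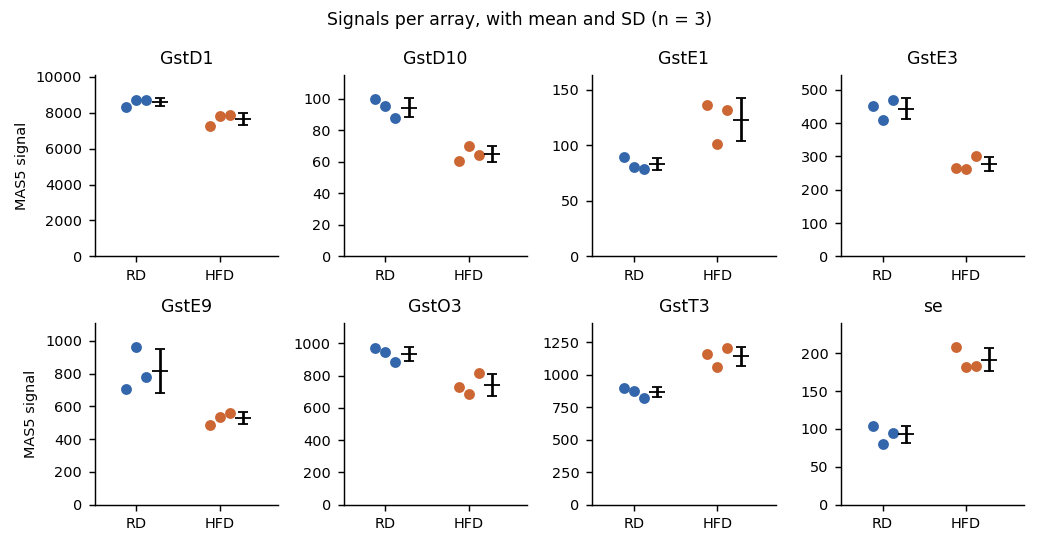
MAS5 signal (y axis, from 0) of the 7 called genes and of the omega gene se on each RD and HFD array, with the mean and SD of 3 arrays beside the points. GstE3 lay between 409 and 470 on RD and between 263 and 300.4 on HFD, and se between 80.8 and 104 on RD and 182 and 209 on HFD.

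Omega transferases carry a cysteine at the active site and act as thiol transferases and dehydroascorbate reductases. The 3 genes with the GstO name lie next to each other together with sepia (se), another omega gene, which the name pattern leaves out. GstO3 had signals of 973, 949 and 888 on RD and 729, 685 and 816 on HFD. The diets did not overlap, and GstO3 fell 1.26-fold (-0.34 ± 0.078 SE, adjusted p = 0.0216). Without RD array 2, HFD array 1 or HFD array 2 its adjusted p was 0.0554, 0.0709 or 0.0793. GstO1 was at 1109 ± 28.9 and 1017 ± 60.8, lower on every HFD array and not past the threshold (adjusted p = 0.179). GstO2 was at 1464 ± 80.4 and 1370 ± 23.8, and its second probe set at 388 ± 13.5 and 362 ± 14.2. Its 2 estimates, -0.095 and -0.0996, were close to each other and neither passed.

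The omega gene se codes for the enzyme that makes a precursor of the red drosopterin eye pigments, and its mutants have sepia-coloured eyes. It went the other way from its neighbour GstO3. Its signals were 104, 80.8 and 94.2 on RD and 209, 182 and 183 on HFD, a rise of 2.05-fold (1.04 ± 0.12 SE, adjusted p = 0.0026). It was called in all 16 alternatives that tested it. Within each array, log2 se minus log2 GstO3 was -3.54 to -3.22 on RD and -2.15 to -1.80 on HFD, a shift of 1.37 in the mean that is likewise a description of a pair chosen for its difference. The reference spans of se and GstO2 overlap.

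Of the 4 theta genes, GstT3 rose and the others did not pass. GstT3 had signals of 896, 879 and 822 on RD and 1159, 1063 and 1209 on HFD. The lowest HFD array was above the highest RD array, and the rise was 1.32-fold (0.40 ± 0.067 SE, adjusted p = 0.0069). No single array decided the call, which was lost after median centring (0.19, adjusted p = 0.0736). GstT4 had signals of 651, 924 and 956 on RD and 671, 699 and 707 on HFD. RD array 1 lay below all HFD arrays while the other RD arrays lay above them, so GstT4 did not pass (-0.26 ± 0.14 SE, adjusted p = 0.203) and was at -0.44 (adjusted p = 0.0029) without RD array 1. GstT1 and GstT2 are direct neighbours. They were at 1306 ± 73.5 and 1276 ± 59.8, and at 455 ± 37.5 and 437 ± 30.5, on RD and HFD, and their intervals ran from -0.18 to 0.11 and from -0.26 to 0.15.

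The sigma gene GstS1 codes for a transferase that is abundant in indirect flight muscle and conjugates 4-hydroxynonenal. Its signals were 1255, 1251 and 1271 on RD and 1237, 1212 and 1232 on HFD. Every HFD array was lower, by little, and GstS1 did not pass (-0.037 ± 0.046 SE, adjusted p = 0.59), with an interval from -0.14 to 0.070. The 8 muscle markers tested all rose in the same RNA, with a median log2 fold change of 1.10.

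The zeta genes GstZ1 and GstZ2 are neighbours, and zeta enzymes convert maleylacetoacetate in the breakdown of tyrosine. GstZ1 was at 316 ± 7.71 on RD and 289 ± 12.9 on HFD, lower on every HFD array and not past the threshold (-0.13 ± 0.075 SE, adjusted p = 0.248). GstZ2 was at 42.3 ± 9.15 and 47.1 ± 3.79 with overlap, and its estimate of 0.17 turned to -0.027 with quantile normalization and -0.040 with median centring. In the list of tyrosine breakdown, 1 of 6 tested genes fell, Hpd, which codes for 4-hydroxyphenylpyruvate dioxygenase (353 ± 13.6 and 260 ± 19.7, -0.44 ± 0.085 SE, adjusted p = 0.0113; 0.053 without RD array 3 and 0.0973 with the 3' to 5' signal ratio of control transcripts, which rises as labelled copies get shorter, as a covariate), and none rose.

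**Figure D4:**
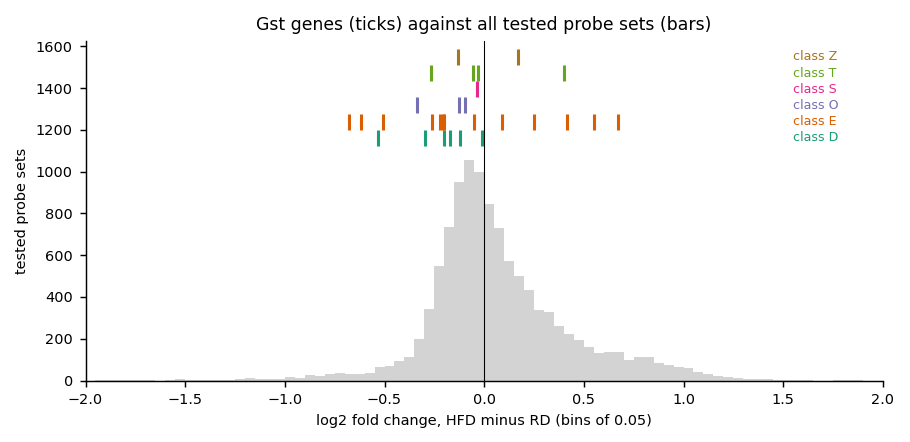
Number of tested probe sets (y axis) by log2 fold change, HFD minus RD, in bins of 0.05 (grey bars, x axis from -2 to 2, with 12 probe sets outside), and the 29 tested genes as ticks coloured by class above them. The ticks run from GstE3 at -0.68 to GstE1 at 0.55, with GstE4, whose RD signals lay under the filter level, farther right; 22 of 29 lie left of 0, while the bars have their long shoulder on the right.

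Of 4 tested genes of glutathione synthesis and turnover none passed. The glutamate-cysteine ligase genes Gclc and Gclm, which catalyse the limiting step, were at 1141 ± 30.9 and 1188 ± 99.0 and at 1359 ± 34.6 and 1269 ± 20.9 on RD and HFD. The cystine transporter gene gb (genderblind) was at -0.15 ± 0.055 SE (adjusted p = 0.0891). Of cnc, Keap1 and maf-S, the regulators of the antioxidant response, cnc rose 1.24-fold, from 1663 ± 189 to 2057 ± 87.8 (0.31 ± 0.082 SE, adjusted p = 0.0333), and the other two did not pass. The adjusted p of cnc was 0.0645 to 0.113 when RD array 2, RD array 3 or any 1 HFD array was left out, and 0.335 after median centring. With this control ratio as a covariate cnc was at 0.14 (adjusted p = 0.497). GstD1, which CncC is known to induce, fell slightly in the same samples, as given above. Which products of cnc its probe set reads is not known here, and the activity of the CncC protein was not measured. A link between these changes was not tested.

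Among 9 tested genes of the glutathione and thioredoxin redox system, 1 fell and none rose. That gene was MsrA, a methionine sulfoxide reductase, at 590 ± 18.7 and 390.2 ± 34.2 (-0.60 ± 0.081 SE, adjusted p = 0.0034), which stayed called in all 17 alternatives that kept the threshold. Of 6 transporter genes listed here under export of conjugates, Mdr65 and Mdr49 rose, Mrp5 fell and 3 did not pass. Whether each of them exports glutathione conjugates was not tested. Mdr65, a transporter of the blood-brain barrier in the fly, was at 38.8 ± 2.64 and 65.4 ± 12.4 (0.72 ± 0.16 SE, adjusted p = 0.0192). Mdr49 was at 158 ± 11.6 and 208 ± 19.5 (0.39 ± 0.11 SE, adjusted p = 0.0399) and Mrp5 at 488 ± 21.6 and 375 ± 15.9 (-0.38 ± 0.071 SE, adjusted p = 0.0099). The call of Mdr49 was lost without any 1 of the 6 arrays (adjusted p from 0.0505 to 0.119) and after quantile normalization (0.0982) or median centring (0.239). The adjusted p of Mdr65 was 0.0557 and 0.0546 when RD array 2 or 3 was left out, 0.0508 when HFD array 2 was and 0.0652 after quantile normalization, and that of Mrp5 was 0.0541 when RD array 3 was left out. With the control ratio as a covariate none of these transporter genes was called (adjusted p = 0.377 for Mdr49, 0.164 for Mdr65 and 0.115 for Mrp5).

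UDP-glycosyltransferases are the other large family of conjugating enzymes. Of 26 tested none rose or fell by limma's adjusted p, with Ugt49B1 (-0.45 ± 0.14 SE, adjusted p = 0.0554) and Ugt37A2 (0.34 ± 0.11 SE, adjusted p = 0.0563) nearest to the threshold. No ecdysone synthesis gene of 7 tested passed, GstE14 among them. Nearest to the threshold were the early-step genes spo (-0.48 ± 0.16 SE, adjusted p = 0.0686) and nvd (-0.69 ± 0.24 SE, adjusted p = 0.0782). For nvd, 2 of the HFD arrays lay under the filter level. Of the relatives outside the name pattern, the microsomal transferase Mgstl had probe sets that disagreed. The brighter one was at 2988 ± 228 and 3165 ± 158 (0.085 ± 0.067 SE, adjusted p = 0.395), while the dimmer fell from 78.6 ± 14.8 to 44.0 ± 13.3 (-0.84 ± 0.23 SE, adjusted p = 0.0396; 0.109 to 0.129 on leaving out array 2 or 3 of RD, or array 1 or 2 of HFD, and 0.458 with the control ratio as a covariate). The gene gfzf, whose protein joins zinc fingers to a transferase domain, did not pass (428 ± 13.7 and 421 ± 38.3).

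Other measures differed with diet in the same arrays. The median signal of all probe sets was 52.8 to 55.3 on RD and 60.7 to 63.8 on HFD. Of 10 tested midgut markers 7 fell and none rose, and their summed signal was 33850 to 42530 on RD and 23400 to 26300 on HFD. Of 6 tested fat body markers 3 fell: Lsp2, whose 3 HFD arrays lay under the filter level, Gnmt (-2.96) and apolpp (-0.52). The other 3 did not pass, with estimates from -0.22 to 0.023. The 8 fat body markers on the array had sums of 18050 to 21510 on RD and 12330 to 16030 on HFD. Of 8 eggshell markers 6 fell. Over all tested probe sets 6.63% were called lower and 12.9% higher. All 8 muscle markers rose, with sums of 3290 to 4290 and 6584 to 8042, and all 6 neuron markers rose, with sums of 520.1 to 803 and 1119 to 1255. Of 3 tested markers of the Malpighian tubule, none passed; the 4 on the array had sums of 662 to 785 and 609 to 773. No marker of these lists was at 0 on all arrays. The part of these differences in the changes of the transferase genes was not tested.

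Controls for actin have probes near each end of the transcript. Their 3' signal divided by their 5' signal, higher where labelled copies are shorter, was 6.15 ± 1.53 on RD and 8.86 ± 0.48 on HFD (exact permutation test, two-sided, p = 0.1, the smallest that 3 against 3 arrays allow), and the highest RD value, 7.85, was that of array 1. The same ratio of eIF-4a ran from 5.90 to 10.03 on RD and 9.38 to 10.9 on HFD, and that of GAPDH from 1.93 to 2.40 and 2.25 to 2.51, so both overlapped (exact permutation p = 0.2 each). When such ratios, averaged over 3 control transcripts on the log2 scale, entered the model as a covariate, 2.42% of all probe sets were called, and of the family GstE3 alone (-0.77, adjusted p = 0.0262). The estimates of GstD10, GstO3 and GstT3 were then -0.54, -0.40 and 0.34 (adjusted p = 0.191, 0.117 and 0.114), near those without it. The estimates of GstE9, GstE1 and GstD1 were nearer to 0, at -0.35, 0.37 and -0.12 (adjusted p = 0.157, 0.407 and 0.458). The mean of each ratio was higher on HFD, so this fit cannot fully tell diet and ratio apart. It also estimates an added term from the same 6 arrays. The reason for the lost calls was not tested. RD array 1 was the RD array nearest to the HFD mean for 13 of the 29 genes and for 53.1% of all tested probe sets. HFD array 1 was the HFD array farthest from the RD mean for 17 of 29 genes and for 49.5% of all.

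**Figure D5:**
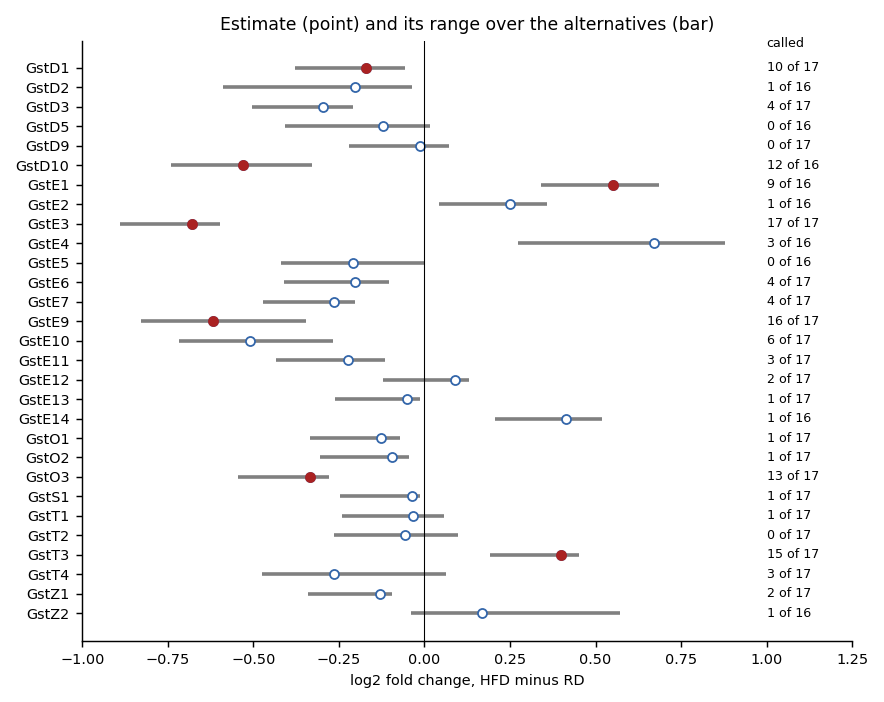
Log2 fold change, HFD minus RD (x axis), of each tested gene as reported (points, red where the adjusted p is under 0.05) and the range of its estimates over the alternatives in processing (bars), with the number of alternatives in which it was called at the right. GstE3 was called in 17 of 17, GstE9 in 16 of 17, GstT3 in 15 of 17, GstO3 in 13 of 17, GstD10 in 12 of 16, GstD1 in 10 of 17 and GstE1 in 9 of 16.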

How the data were processed

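Per the submitters' processing notes, the deposited values are intensity values per probe set (linear signals) made with MAS5. Its version and scaling are not given in the sources used here. Samples were grouped by their titles, and 0 columns were of other samples. Members and gene lists were chosen with earlier results of these data known.

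The 183 control probe sets were left out of 18952, 1 was added before log2, and the 11261 probe sets with a mean above the 40th percentile were tested two-sided with limma 3.58.1 under R 4.3.3, with moderated variances that follow a trend in intensity and a threshold of 0.05. Single values were compared with exact permutation tests (scipy 1.17.1). Arrays of a diet had a median SD per probe set of 0.21 (log2) among the dimmest 25% of those tested and 0.074 among the brightest 25%. The number of arrays limits the precision.

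Gene names came from the array annotation and matched the Release 6 table for all 34 genes. It names no build, so no coordinates are given. Close relatives can share probes. No sequence tables were used here. Every family member is named. Of the other lists, up to 4 called genes are, or the 2 with the smallest p. Gclc, gfzf and the second probe set of Mgstl were added after values were seen.

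In simulated data for this comparison (200 of 11261 probe sets changed), changes of 0.5, 1 and 2 were recovered for 88%, 100% and 100%, and 4.9% of calls were false. The simulated noise was independent between arrays, with an SD set by brightness alone, and held no difference in array scale or control ratio. These rates describe the simulation and not the calls on the arrays, where 19.5% of probe sets were called. Alternatives were other scalings, added constants, filters, eBayes settings, array weights, a replicate block, a control-ratio covariate, thresholds, all probe sets of a gene, and leaving out each array. Those for the related genes were chosen after seeing the data. Figures used Python 3.11.15 and matplotlib 3.10.9.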

Additional observations from a re-analysis of the deposited data

How the results depend on the processing

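The family counts moved with the processing, as did those of all probe sets. As reported, 2196 probe sets were called, and 2 family members were higher and 5 lower. Median centring gave 4995, 0 and 17, with a family median of -0.34. Array weights gave 6129, 7 and 13, the control 3'/5' ratio as covariate 272, 0 and 1, a threshold of 0.01 gave 790, 1 and 1, and asking also for a 2-fold change 290, 0 and 0. The filter at the 60th percentile gave 1361 probe sets and 1 member higher, with 4 lower among 20 tested. Without 1 array each, the count of probe sets was 1008 to 2707, of members higher 1 to 2 and of members lower 2 to 9, the highest without RD array 1 and the lowest without RD array 2 or HFD array 1. Adding 16 or 50, no filter, robust eBayes and every probe set of a gene left the counts at 2 and 5.

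Of 484 single-gene values over 17 alternatives, 404 kept their direction and their side of the threshold, 25 lost the call, 40 gained it and 15 changed sign; no called member changed sign. GstZ2 turned to -0.027 with quantile normalization and -0.040 with median centring, which also turned GstE12 (-0.12). GstD9 and GstT1 turned with array weights (0.072 and 0.057). With the control ratio GstT1, GstT2 and GstT4 turned (0.024, 0.097 and 0.063). Leaving out 1 array turned GstD5 and GstD9 (RD array 1), GstT1 and GstT2 (RD array 2), GstE5 and GstT1 (HFD array 1) and GstD9 (HFD array 3), with ranges of -0.23 to 0.015 for GstD5, -0.091 to 0.058 for GstD9, -0.35 to 0.00014 for GstE5, -0.072 to 0.0087 for GstT1 and -0.11 to 0.0051 for GstT2. The causes were not tested.

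With the replicate number as a block, 2560 probe sets were called, and 3 members were higher and 7 lower. GstE4, which entered the test through its HFD arrays alone, is among the members higher there, with array weights and without HFD array 1. Same-numbered arrays had correlations of 0.072, 0.10 and 0.027 of their deviations from the diet means, and the labels give no shared source, so the numbers were not taken to pair the samples. RD arrays 1 and 2 and HFD array 1 correlated best with the array of their own number, and the other arrays did not. Low signals limit the class D genes left untested.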
